A study of Sus scrofa with 22 samples.

Results

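WT+Kdm4A embryos were compared with WT embryos across genes, in 4 libraries of RNA from pig blastocysts cultured to day 6, 2 libraries per group. The libraries were chosen by their titles and are 4 of the 22 in the series. The series, whose title concerns XIST on the active X chromosome in pig somatic cell nuclear transfer (cloning), also holds 2 XIST-KO and 2 IVF libraries of the same day and 14 libraries of fetuses. The WT+Kdm4A and WT embryos were cloned and labelled male, and differ in their labels by Kdm4A alone. The labels do not say how, when or at what dose Kdm4A was given, from which donor cells the clones came, or how many embryos a library pools. XIST-KO embryos, whose title says that XIST is knocked out, are labelled male, and IVF (in vitro fertilized) embryos are labelled as pooled male and female. Both serve as a frame for the 4 compared libraries, and fetuses were not used.

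Kdm4A is a histone demethylase that removes methyl groups from histone H3, among others at lysine 9. Methylation of histone H3 at lysine 9 marks silent chromatin, and a donor nucleus carries it into the oocyte. In mouse cloning, regions with this mark in the donor cell stay silent when the embryonic genome switches on, and demethylases of the Kdm4 family added to the egg let more clones reach the blastocyst stage. A blastocyst consists of the trophectoderm, which forms the placenta, and of the inner cell mass, which gives the epiblast and the primitive endoderm.

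Counts of transcript records were summed per gene symbol, giving 14389 genes of which 6958 had enough counts to be tested. Gene counts came to 17.04 and 15.51 M in WT+Kdm4A libraries, against 6.39 and 7.46 M in WT libraries, so that the WT+Kdm4A libraries were the deeper ones. At the depth of the shallowest embryo library, 6866 and 6701 genes were detected in WT+Kdm4A libraries, against 6071 and 6003 in WT libraries. Neither KDM4A nor XIST had a matched record, so the label Kdm4A could not be checked in these values and both genes are not analysed here. Levels are CPM (counts scaled to a common library total) with edgeR's scaling, fold changes are log2 values of WT+Kdm4A over WT with their standard error (SE), and a gene is called at an adjusted p under 0.05 in edgeR's quasi-likelihood test. Whether the 2 libraries of a group came from separate cultures is not given in the labels. The p-values therefore measure only the spread between replicate libraries, estimated from all 8 embryo libraries together. No record of the counting says whether strand was used, so reads of a gene and of its antisense partner cannot be told apart. Read shares are likewise uncertain for named genes with near-identical copies, among them TMSB4X, SLC25A5, EIF1AX and HSP90AA1.

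In most called genes WT was the extreme group among the 8 embryo libraries. Of the 312 genes called lower in WT+Kdm4A, 302 (96.8%) had both WT libraries above all 6 other libraries, and 76 (24.4%) had both WT+Kdm4A libraries below all 6 others. Of the 205 genes called higher, 157 (76.6%) had both WT libraries below all 6 others, and 83 (40.5%) had both WT+Kdm4A libraries above all 6 others. Over all genes tested, both WT libraries lay above all 6 others in 14.7% and below them in 11.1%, and both WT+Kdm4A libraries lay above all 6 others in 9.37% and below them in 3.72%. No called gene overlapped between the 2 compared groups, so genes without overlap are the closer base. Of 1871 genes wholly lower in WT+Kdm4A, called or not, 1025 had WT above all 6 others and 259 had WT+Kdm4A below all 6 others. Of 2705 genes wholly higher, 773 had WT below all 6 others and 652 had WT+Kdm4A above all 6 others. Spearman correlations over tested genes, given as a description, ran from 0.557 to 0.729 between WT+Kdm4A and WT libraries, from 0.739 to 0.824 between WT+Kdm4A and XIST-KO, and from 0.769 to 0.809 between WT+Kdm4A and IVF. Between WT and XIST-KO libraries they ran from 0.659 to 0.853, and between WT and IVF from 0.567 to 0.692. Replicates correlated at 0.917 in WT+Kdm4A, at 0.854 in WT and at 0.776 in XIST-KO. XIST-KO replicate 1 correlated with WT replicate 2 at 0.853, so the WT libraries did not stand apart in this measure. Leaving out a compared library leaves its group with 1 library and changes the estimate of spread, so that calls can be lost or gained. A call lost in such a fit therefore does not measure the part of that library.

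**Figure D1:**
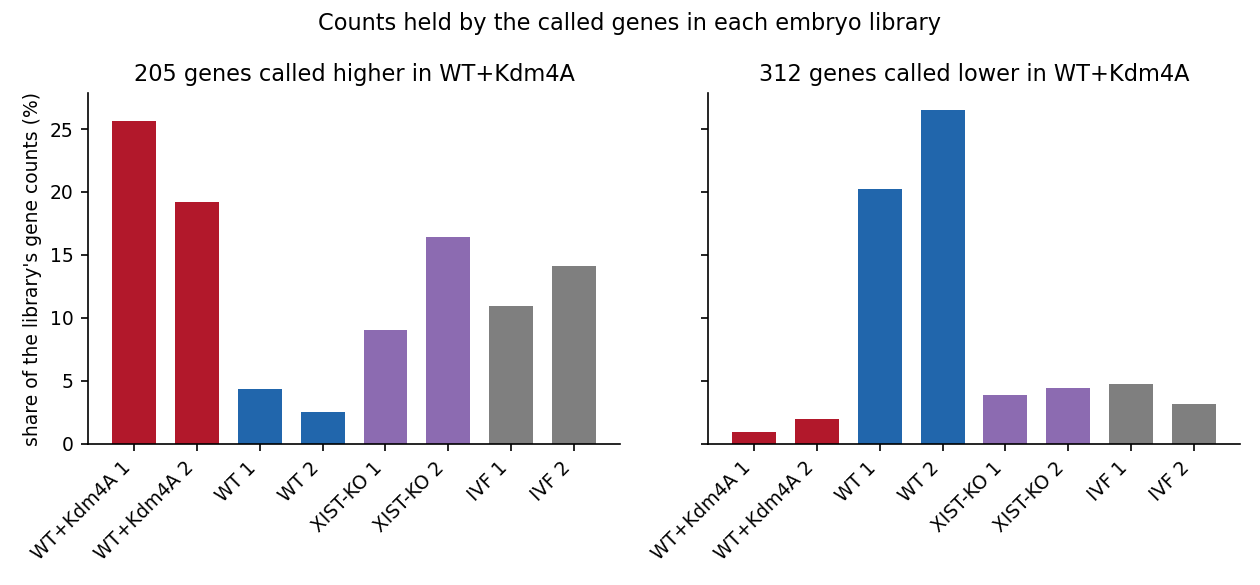
Share of each library's gene counts, in percent, held by the 205 genes called higher (left) and the 312 genes called lower (right) in WT+Kdm4A, 1 bar per library with replicate numbers below. The called-lower genes held 0.928% and 1.98% in WT+Kdm4A libraries, against 20.2% and 26.5% in WT libraries, with the other 4 libraries between 3.17% and 4.75%.

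In all, 517 of 6958 genes (7.43%) were called, 205 higher (2.95%) and 312 lower (4.48%) in WT+Kdm4A. All 517 had no overlap between the 2 groups, but with 2 libraries a group 38.9% of all genes tested lay wholly higher and 26.9% wholly lower. The median log2 fold change was 3.38 among genes called higher and -5.23 among genes called lower, and 0.35 over all genes tested. Of the calls, 21 genes had no count in either WT library and 25 had none in either WT+Kdm4A library. The called-higher genes held 25.6% and 19.2% of gene counts in WT+Kdm4A libraries, against 4.32% and 2.47% in WT libraries, 9.05% and 16.4% in XIST-KO and 10.9% and 14.1% in IVF.

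Calls depended on which libraries were fitted. Of the 517 called genes, 0 changed the sign of their fold change when 1 of the 4 compared libraries was left out. Without WT replicate 1 there were 13 calls higher and 120 lower, and without WT replicate 2 there were 9 and 49, while leaving out WT+Kdm4A replicate 1 gave 88 and 150 and leaving out WT+Kdm4A replicate 2 gave 299 and 374. With each of the 4 compared libraries left out in turn, 45 genes stayed called lower every time and 0 stayed called higher. Below, the 45 are referred to as calls that held without each library. With RLE size factors the median of all genes was 0.23. With limma on log2(TPM + 1), which changes the unit, the pseudocount and the model together, it was 0.14, with 220 genes called higher and 540 lower.

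**Figure D2:**
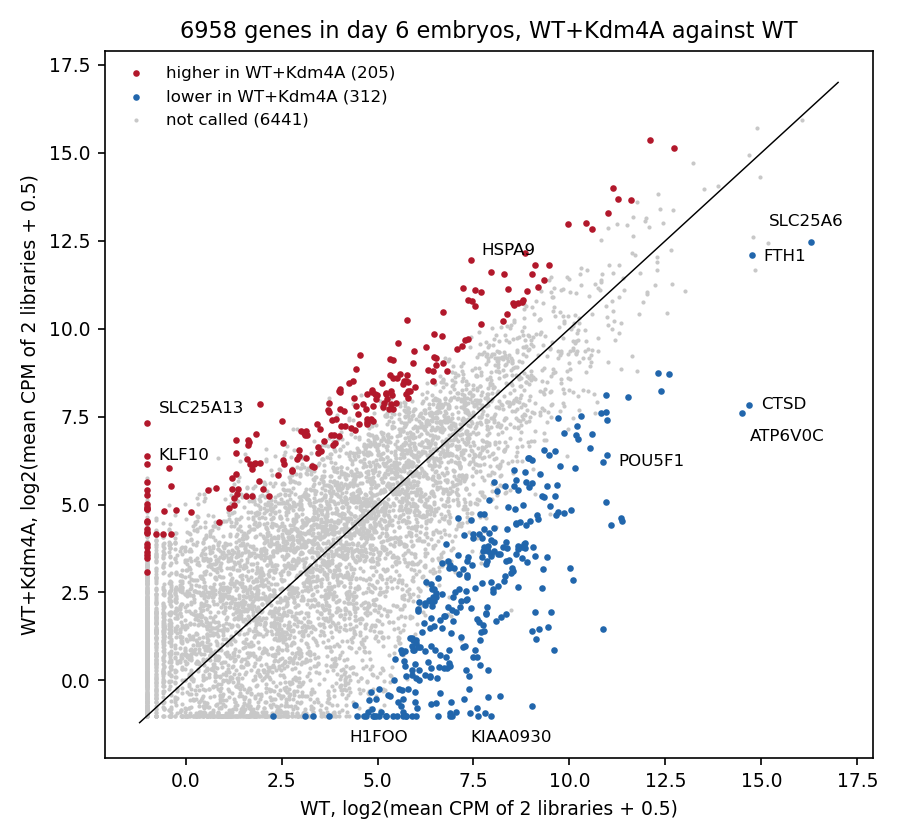
Mean level of each of the 6958 genes tested, as log2(CPM + 0.5), in WT+Kdm4A (y axis) against WT (x axis), with called genes in colour and the line of equal level. Points at the left edge had 0 CPM in both WT libraries and points at the lower edge 0 CPM in both WT+Kdm4A libraries.

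A few genes held much of the shift in counts, and they were picked for this after their values were seen. SLC25A6, an ADP/ATP carrier of the inner mitochondrial membrane, took 0.109% and 0.822% of gene counts in WT+Kdm4A libraries, against 4.95% and 8.45% in WT libraries, with 1.26% to 2.40% in the other 4. Its level was 1124 and 10180 CPM in WT+Kdm4A libraries, against 50990 and 109800 CPM in WT libraries (log2 fold change -3.83, SE 0.98, adjusted p = 0.0397). FTH1, the heavy chain of the iron store ferritin, was at 3158 and 5518 CPM in WT+Kdm4A libraries, against 25050 and 30390 CPM in WT libraries (log2 fold change -2.68, SE 0.60, adjusted p = 0.0249). Both fell, with WT as the high group. Among genes called higher, EEF1A1, the elongation factor that brings tRNA to the ribosome, was at 40070 and 32340 CPM in WT+Kdm4A libraries, against 8158 and 5400 CPM in WT libraries (log2 fold change 2.42, SE 0.59, adjusted p = 0.0325). XIST-KO replicate 2, at 29040 CPM, came close to the WT+Kdm4A libraries. Without the 5 most abundant genes of each direction, the called-lower genes held 0.445% and 0.634% of counts in WT+Kdm4A libraries, against 8.69% and 10.4% in WT libraries. The called-higher genes without their 5 most abundant held 14.0% and 9.34% in WT+Kdm4A libraries, against 2.23% and 1.18% in WT libraries. SLC25A6, FTH1 and EEF1A1 have close paralogs or processed copies, and the split of reads among these is uncertain. None of the 3 calls remained without WT replicate 1, without WT replicate 2 or without WT+Kdm4A replicate 1.

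The genes with the largest fitted decreases were low or absent outside WT. KIAA0930 (Sscrofa11.1, chromosome 5, 4152371 to 4198372) had no count in WT+Kdm4A, XIST-KO or IVF libraries and 218 and 173 CPM in WT libraries, at least 1907-fold lower in WT+Kdm4A if its 2 libraries together are set to 3 counts (adjusted p = 0.00481). TEPSIN, which binds the AP-4 coat of transport vesicles, likewise had no count in any library outside WT and 134 and 101 CPM in WT libraries (at least 1150-fold lower, adjusted p = 0.00769). These 2 genes were listed at 0 in all 6 libraries that are not WT. AP5Z1, a subunit of the AP-5 coat, had no count in WT+Kdm4A libraries, against 70.5 and 119 CPM in WT libraries, and 0.125 to 1.16 CPM in XIST-KO and IVF libraries (at least 913-fold lower, adjusted p = 0.00838). MTG1, a GTPase of mitochondrial ribosome assembly, was at 0.0602 and 0.16 CPM in WT+Kdm4A libraries, against 321 and 718 CPM in WT libraries, a ratio of WT to WT+Kdm4A of 4969 (95% counting interval 1700 to 24100) (adjusted p = 0.00481). CLPTM1, a transmembrane protein, was at 0.0602 and 0 CPM in WT+Kdm4A libraries, against 113 and 227 CPM in WT libraries, a ratio of 4888 (95% counting interval 876 to 193200) (adjusted p = 0.00424). The 5 genes, with the complex I subunit NDUFS6, were the 6 of the 15 largest decreases whose calls held without each library.

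The other 9 of these 15 lost their call on leaving out at least 1 library. They were C13H21orf33, the adaptor protein GRAP, the zinc finger gene ZNF205, the cyclin FAM58A, the phosphatase subunit PPP1R16A, RHPN1, the interleukin-1 and Toll-like receptor kinase IRAK1, LOC100627967 and the microtubule-binding protein EML3. All 9 had no count in WT+Kdm4A libraries, and in WT libraries their levels ran from 10.3 CPM (LOC100627967, replicate 1) to 324 CPM (C13H21orf33, replicate 2). Of the 15 decreases, 11 remained called without WT replicate 1, 6 without WT replicate 2, 13 without WT+Kdm4A replicate 1 and 15 without WT+Kdm4A replicate 2.

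**Figure D3:**
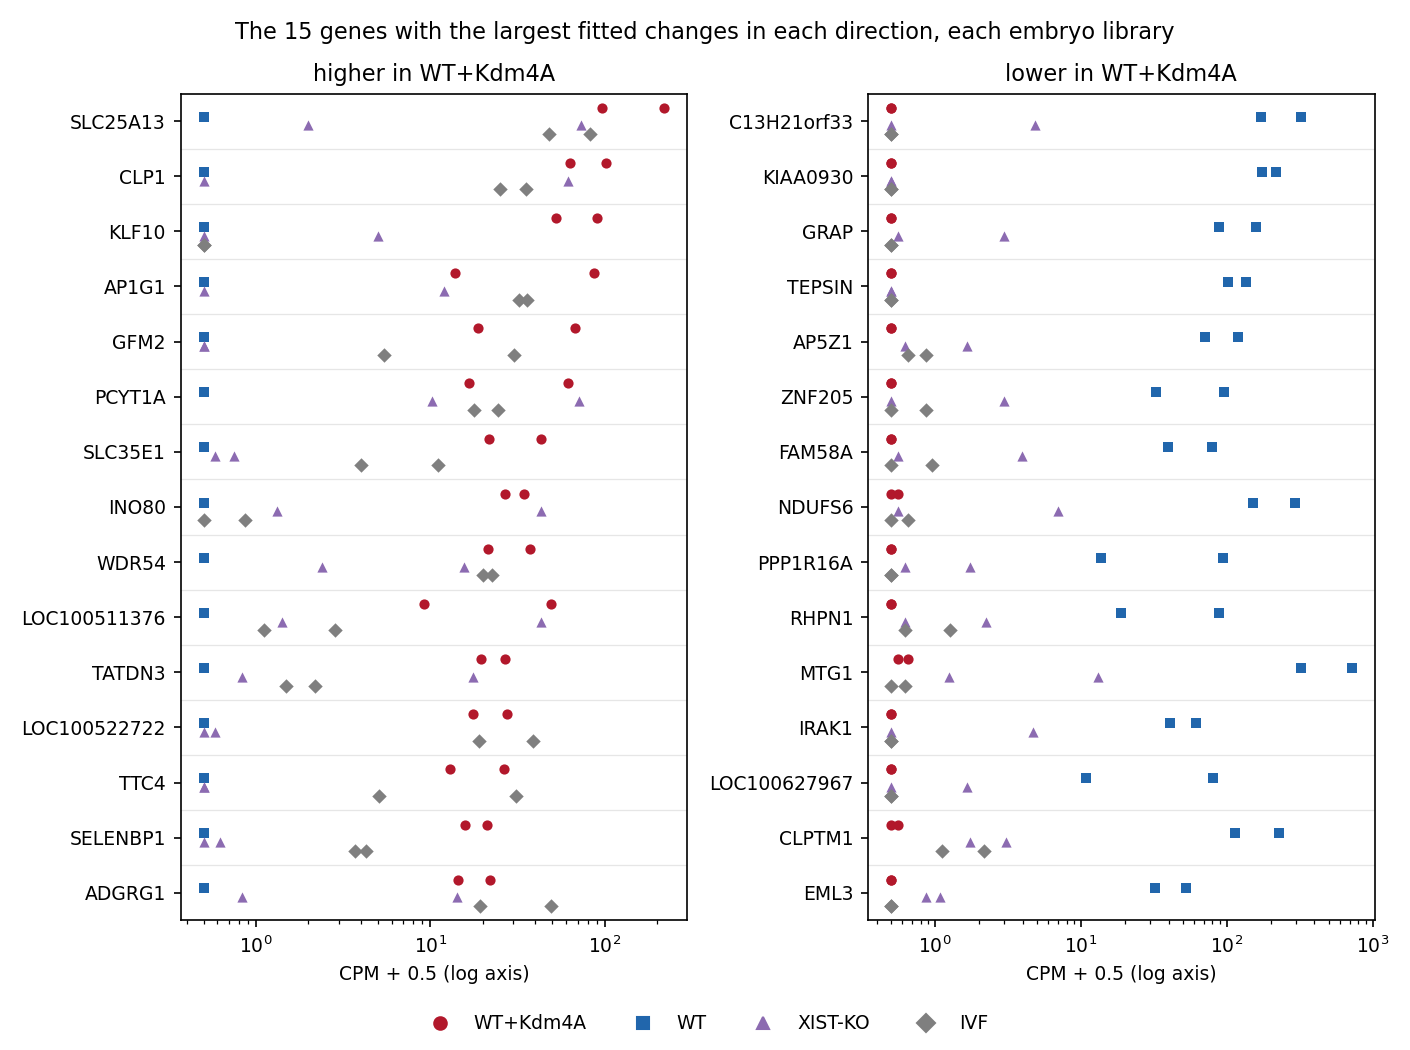
Level in each embryo library, as CPM + 0.5 on a log axis, of the 15 genes with the largest fitted increase (left) and the 15 with the largest fitted decrease (right) in WT+Kdm4A, 1 point per library. In the left panel the WT libraries sit at 0 CPM for every gene, and many XIST-KO replicate 2 and IVF points lie near the WT+Kdm4A points. XIST-KO replicate 1 lies at or near 0 CPM for most of these genes, with CLP1 at 61.4 CPM and PCYT1A at 9.74 CPM. In the right panel the WT libraries lie apart from all others.

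The decreases with the smallest p-values were highly expressed in WT and reached genes of several compartments. NFKBIB, an inhibitor of NF-kappa-B, was at 0.662 and 2.0 CPM in WT+Kdm4A libraries, against 374 and 1165 CPM in WT libraries (log2 fold change -9.18, SE 1.02, adjusted p = 0.00424). LRPAP1, a chaperone of lipoprotein receptors, was at 15.1 and 30.4 CPM in WT+Kdm4A libraries, against 2712 and 2591 CPM in WT libraries (log2 fold change -6.87, SE 0.81, adjusted p = 0.00424). BOP1, a factor of ribosome assembly, was at 1.56 and 5.19 CPM in WT+Kdm4A libraries, against 541 and 555 CPM in WT libraries (log2 fold change -7.34, SE 0.89, adjusted p = 0.00424). In all 3 genes the XIST-KO and IVF libraries, at 2.82 to 36.1 CPM, lay near WT+Kdm4A and far from WT. RALY, an RNA-binding protein of the spliceosome, was at 4.94 and 6.47 CPM in WT+Kdm4A libraries, against 329 and 923 CPM in WT libraries (log2 fold change -6.78, SE 0.86, adjusted p = 0.00458), and both IVF libraries, at 1.22 and 0.981 CPM, were lower still. TONSL, a reader of newly made chromatin at stalled replication forks, was at 0.361 and 1.12 CPM in WT+Kdm4A libraries, against 196 and 118 CPM in WT libraries (log2 fold change -7.73, SE 1.10, adjusted p = 0.00578). SLC35C2, a nucleotide-sugar transporter family member, was at 0.241 and 1.2 CPM in WT+Kdm4A libraries, against 182 and 288 CPM in WT libraries (log2 fold change -8.36, SE 1.19, adjusted p = 0.00573). All 6 calls held without each library.

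The largest fitted increases were of genes with no count in WT. SLC25A13, the mitochondrial aspartate-glutamate carrier, was at 220 and 95.9 CPM in WT+Kdm4A libraries and at 0 CPM in both WT libraries, at least 663-fold higher with the WT libraries together set to 3 counts (adjusted p = 0.0129). CLP1, an RNA kinase of messenger and transfer RNA processing, was at 102 and 62.7 CPM in WT+Kdm4A libraries and 0 CPM in WT libraries (at least 338-fold higher, adjusted p = 0.0445). KLF10 (chromosome 4, 34430132 to 34435990), a zinc finger transcription factor induced by TGF-beta, was at 90.2 and 52.3 CPM in WT+Kdm4A libraries and 0 CPM in WT libraries (at least 295-fold higher, adjusted p = 0.0372). KLF10 was also at 0 CPM in both IVF libraries and at 0 and 4.5 CPM in XIST-KO, so that here the WT+Kdm4A libraries stood apart. PCYT1A, the rate-limiting enzyme of phosphatidylcholine synthesis, was at 60.8 and 16.1 CPM in WT+Kdm4A libraries and 0 CPM in WT libraries (at least 166-fold higher, adjusted p = 0.0138). INO80, the ATPase of a chromatin remodelling complex, was at 34.1 and 26.3 CPM in WT+Kdm4A libraries and 0 CPM in WT libraries (at least 123-fold higher, adjusted p = 0.0439). XIST-KO replicate 2 was higher than both WT+Kdm4A libraries for PCYT1A and INO80, at 70.8 and 42.6 CPM. XIST-KO replicate 1 was below both WT+Kdm4A libraries, at 9.74 and 0.825 CPM.

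The remaining 10 of the 15 largest increases also had no count in WT libraries. They were the AP-1 coat subunit AP1G1, the mitochondrial recycling factor GFM2, SLC35E1, WDR54, LOC100511376, the deoxyribonuclease family member TATDN3, LOC100522722, the HSP90 co-chaperone TTC4, the methanethiol oxidase SELENBP1 and the adhesion receptor ADGRG1. Their bounds ran from at least 68.6-fold (ADGRG1) to at least 219-fold (AP1G1). None of the 15 increases remained called without WT replicate 1 or without WT replicate 2, while 9 remained without WT+Kdm4A replicate 1 and 14 without WT+Kdm4A replicate 2. Among genes with counts in WT, the increases with the smallest p-values, chosen after their values were seen, included HSPA9, the mitochondrial HSP70 chaperone, at 5830 and 2081 CPM in WT+Kdm4A libraries, against 218 and 130 CPM in WT libraries (log2 fold change 4.51, SE 0.79, adjusted p = 0.0118). CD9, a tetraspanin of the cell surface, was at 1629 and 2716 CPM in WT+Kdm4A libraries, against 209 and 165 CPM in WT libraries (log2 fold change 3.54, SE 0.59, adjusted p = 0.0108), with 1231 to 2435 CPM in XIST-KO and IVF libraries.

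Genes in which WT+Kdm4A itself lay beyond all 6 other libraries were the smaller set, 83 of the 205 calls higher and 76 of the 312 calls lower. Among decreases, several were low in WT+Kdm4A and expressed in every other library. H1FOO (chromosome 13, 68921491 to 68943061), the linker histone of the oocyte, had no count in WT+Kdm4A libraries, against 28.3 and 29.3 CPM in WT libraries, 27.6 and 8.31 CPM in XIST-KO and 3.52 and 1.84 CPM in IVF (at least 280-fold lower, adjusted p = 0.0129). It was named after its values were seen, and its adjusted p was 0.05025 without WT replicate 2. RFFL, a ubiquitin ligase, had no count in WT+Kdm4A libraries, against 7.57 and 8.71 CPM in WT libraries and 7.43 to 50.02 CPM in XIST-KO and IVF (at least 78.8-fold lower, adjusted p = 0.0159). PTPN21, a tyrosine phosphatase, had no count in WT+Kdm4A libraries, against 5.64 and 3.13 CPM in WT libraries and 5.45 to 24.9 CPM in XIST-KO and IVF (at least 43.1-fold lower, adjusted p = 0.0325). For H1FOO, RFFL and PTPN21 the 6 other libraries all had counts, at 1.84 to 50.02 CPM over the 3 genes. RFFL lost its call without WT replicate 2 or WT+Kdm4A replicate 1, and PTPN21 lost it without any 1 of the 4 compared libraries.

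Among increases beyond all 6 other libraries, TTF2, an ATPase that ends transcription, was at 145 and 81.8 CPM in WT+Kdm4A libraries, against 0 and 4.01 CPM in WT libraries and 13.1 to 49 CPM in XIST-KO and IVF (log2 fold change 5.82, SE 1.42, adjusted p = 0.0336). TGIF1, a homeobox repressor in TGF-beta signalling, was at 54.8 and 32.6 CPM in WT+Kdm4A libraries, against 1.77 and 0.697 CPM in WT libraries and 4.13 to 24.4 CPM in the other 4 (log2 fold change 5.13, SE 1.31, adjusted p = 0.0391). EPHA2, an ephrin receptor, was at 17.94 and 8.86 CPM in WT+Kdm4A libraries and 0 CPM in WT libraries, with 1.84 to 3.93 CPM in the other 4 (at least 55.9-fold higher, adjusted p = 0.0451). These 3 genes were thus higher in WT+Kdm4A than in any other embryo library. BPNT1, a phosphatase of sulfur metabolism, was at 86.2 and 44.9 CPM in WT+Kdm4A libraries, against 0.483 and 0 CPM in WT libraries, a ratio of WT+Kdm4A to WT of 273 (95% counting interval 93.1 to 1323) (adjusted p = 0.0146). The actin-severing protein SCIN and the RNA polymerase III subunit POLR3F followed the same order of groups. Of these 6 calls, TTF2 alone remained without WT replicate 2 and BPNT1 alone without WT replicate 1.

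The trophectoderm keratins KRT8 and KRT18 were abundant in all 4 libraries. KRT19, another trophectoderm keratin, was at 15.7 and 45 CPM in WT+Kdm4A libraries, against 46.2 and 4.88 CPM in WT libraries. Trophectoderm markers (9 of 9 matched) summed to 47436 and 101201 CPM in WT+Kdm4A libraries, against 64882 and 61446 CPM in WT libraries, nearly all of it from the keratins KRT8 and KRT18. Of 20 trophectoderm genes tested, 1 rose and 0 fell (5.0% called, against 7.43% of all genes). The riser was CDH1, the E-cadherin of epithelial junctions, at 150 and 66.3 CPM in WT+Kdm4A libraries, against 1.77 and 8.88 CPM in WT libraries (log2 fold change 4.34, SE 1.16, adjusted p = 0.0444), and XIST-KO replicate 2 was higher still, at 270 CPM. The CDH1 call was lost without WT replicate 1 or WT replicate 2. KRT8 was at 5210 and 35590 CPM in WT+Kdm4A libraries, against 34320 and 29900 CPM in WT libraries, and the groups overlapped. CDX2, the trophectoderm master regulator, was at 13.5 and 13.7 CPM in WT+Kdm4A libraries, against 70.4 and 31.0 CPM in WT libraries, without overlap but short of the threshold (log2 fold change -1.89, SE 1.05, adjusted p = 0.240). GATA2, GATA3 and TEAD4, further regulators of this lineage, lay wholly lower in WT+Kdm4A but were not called (adjusted p = 0.201, 0.413 and 0.355). In WT+Kdm4A libraries GATA2 was at 27.5 and 167 CPM, against 331 and 236 CPM in WT. GATA3 was at 30.6 and 49.8 CPM, against 83.1 and 84.3 CPM, and TEAD4 at 129 and 223 CPM, against 347 and 289 CPM. TFAP2C overlapped (log2 fold change -1.28), and KRT18 and KRT19 had fold changes above 0, not called. Over all genes, 26.9% lay wholly lower.

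The inner cell mass factor POU5F1 (OCT4; chromosome 7, 23564654 to 23570691) was the 1 lineage regulator of these that fell. It was at 68.5 and 101 CPM in WT+Kdm4A libraries, against 1156 and 2901 CPM in WT libraries, 352 and 35.6 CPM in XIST-KO and 27.4 and 27.1 CPM in IVF (log2 fold change -4.58, SE 0.98, adjusted p = 0.0205). WT was thus the high group, and WT+Kdm4A lay within the range of the XIST-KO and IVF libraries. Without WT replicate 2 the adjusted p was 0.0998. NANOG and SOX2, partners of POU5F1 in the epiblast, were at 0 CPM in all 4 compared libraries, and KLF17 was at 90.2 and 159 CPM in WT+Kdm4A libraries, against 46.9 and 125 CPM in WT libraries. Of 14 pluripotency genes tested, 0 rose and 1 fell (7.14% called, against 7.43% of all genes). Their median log2 fold change was 0.20, against 0.35 over all genes. In bulk samples, fewer cells of a type and less RNA per cell cannot be told apart, and the read share of POU5F1 against its processed copies is uncertain.

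**Figure D4:**
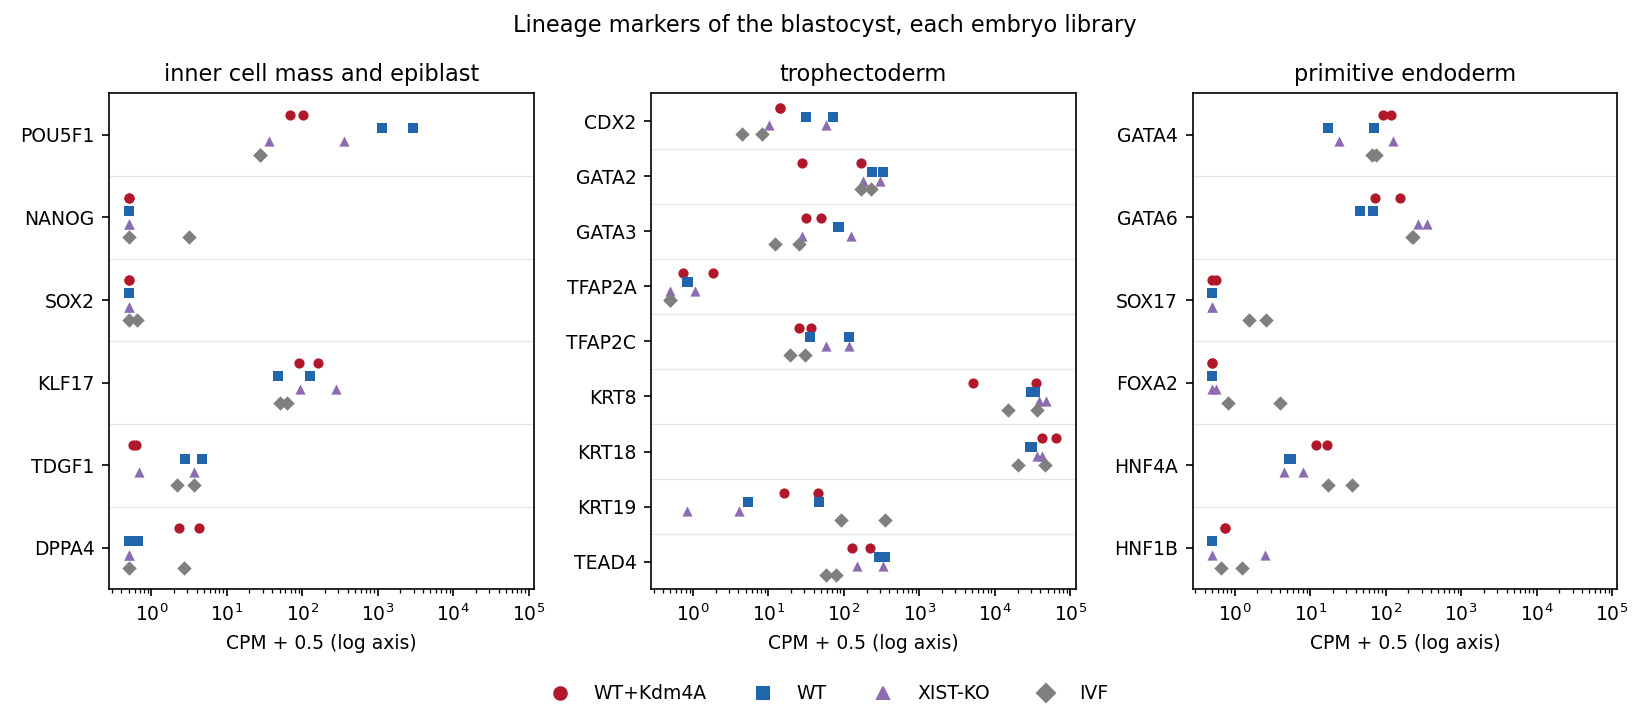
Level in each embryo library, as CPM + 0.5 on a log axis, of the matched markers of inner cell mass and epiblast, trophectoderm and primitive endoderm, 1 point per library. POU5F1 is lower in WT+Kdm4A than in WT, NANOG and SOX2 sit at 0 CPM in all 4 compared libraries, and the keratins KRT8 and KRT18 are abundant in all 8.

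Primitive endoderm markers summed higher in WT+Kdm4A than in WT. Of the longer list of this layer 1 gene was called, or 11.1% of 9 tested, against 7.43% of all genes. The markers (6 of 7 matched) summed to 175 and 289 CPM in WT+Kdm4A libraries, against 121 and 89.3 CPM in WT libraries. XIST-KO libraries, at 300 and 486 CPM, and IVF libraries, at 315 and 343 CPM, lay above both groups, so that WT was the low group. LAMB1, a laminin of the basement membrane laid down by this layer, was at 84.6 and 50.9 CPM in WT+Kdm4A libraries, against 10.8 and 7.66 CPM in WT libraries (log2 fold change 2.87, SE 0.80, adjusted p = 0.04998), and was the 1 call among 9 genes tested. Its call was lost without any 1 of the 4 compared libraries. GATA4 was at 91.0 and 118 CPM in WT+Kdm4A libraries, against 70.7 and 16.7 CPM in WT libraries, and GATA6 was at 72.5 and 155 CPM, against 44.9 and 67.9 CPM, neither of them called (adjusted p = 0.354 and 0.271). Defining markers of other cell types were at low levels. Fibroblast markers (7 of 9 matched) summed to 1.63 and 1.28 CPM in WT+Kdm4A libraries, against 0 and 0 CPM in WT libraries, with COL3A1, LUM, DCN, THY1, TWIST1 and TWIST2 at 0 CPM in all 4. Cumulus and granulosa markers (7 of 7) summed to 8.73 and 4.15 CPM in WT+Kdm4A libraries, against 8.21 and 2.61 CPM in WT libraries, and blood markers (3 of 4) to 3.31 and 3.35 CPM, against 0.322 and 4.01 CPM. The longer gene lists summed to 52.4 and 58.4 CPM in WT+Kdm4A libraries, against 38.8 and 39.4 CPM in WT libraries, for fibroblasts and to 130 and 137 CPM, against 82.5 and 89.5 CPM, for cumulus cells. VIM, an intermediate filament protein of the fibroblast list, was at 21.2 and 27.5 CPM in WT+Kdm4A libraries, against 22.9 and 28.7 CPM in WT libraries, and FN1, fibronectin, was at 17.2 and 1.28 CPM, against 0 and 0 CPM. FST, the activin antagonist follistatin of the cumulus list, was at 96.1 and 110 CPM in WT+Kdm4A libraries, against 58.6 and 54.2 CPM in WT libraries. None of the 3 passed edgeR's test.

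Oocyte markers (7 of 7 matched) summed to 20.2 and 23.1 CPM in WT+Kdm4A libraries, against 2.58 and 1.39 CPM in WT libraries, 0.331 and 11.3 CPM in XIST-KO and 25.2 and 62.6 CPM in IVF. ZP3, a protein of the egg coat, was at 11.1 and 15.2 CPM in WT+Kdm4A libraries, against 0.322 and 0.174 CPM in WT libraries, short of the threshold (log2 fold change 5.66, SE 2.20, adjusted p = 0.127). NLRP5 was at 0 CPM in all 4 libraries and ZAR1 at 0 to 0.322 CPM. Of 10 oocyte and maternal-effect genes tested, 0 rose and 0 fell in edgeR's test, with a median log2 fold change of 2.0. Of the 10, 7 lay wholly higher and 0 wholly lower in WT+Kdm4A, against 38.9% and 26.9% of all genes. Of them, 3 had an unadjusted p under 0.05, and DESeq2, limma and the likelihood ratio test called 2, 0 and 3. H1FOO, which is outside the tested list and was picked after its values were seen, fell as given above. The part of residual maternal RNA in these differences was not tested.

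Regulators of histone H3 lysine 9 methylation were measured because Kdm4A acts on this mark. Of 22 tested, 0 rose and 1 fell (4.55% called, against 7.43% of all genes). Their median log2 fold change was 1.15, against 0.35 over all genes. The 1 that fell was HDAC2, a histone deacetylase, at 9.33 and 1.68 CPM in WT+Kdm4A libraries, against 49.9 and 122 CPM in WT libraries (log2 fold change -3.96, SE 1.09, adjusted p = 0.04998). XIST-KO and IVF libraries, at 5.28 to 26.7 CPM, were also low, and the call was lost on leaving out any 1 of the compared libraries. Among 21 regulators of histone acetylation and lysine 4 methylation, INO80 rose and HDAC2 and WDR5 fell (14.3% called, against 7.43% of all genes). WDR5, the core subunit of lysine 4 methyltransferase complexes, was at 0 and 0.319 CPM in WT+Kdm4A libraries, against 53 and 71.8 CPM in WT libraries (log2 fold change -8.58, SE 2.01, adjusted p = 0.0287), with at most 4.87 CPM in the other 4. The INO80 and WDR5 calls were lost without WT replicate 1 or WT replicate 2. HDAC10, a deacetylase outside these lists that was named after its values were seen, was at 1.02 and 5.35 CPM in WT+Kdm4A libraries, against 226 and 230 CPM in WT libraries (log2 fold change -6.16, SE 0.98, adjusted p = 0.00877), a call that held without each library.

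DNA methylation and polycomb regulators gave no calls among 9 and 14 genes tested in edgeR's test. At an unadjusted p under 0.05, in DESeq2, in limma and in the likelihood ratio test the counts were 2, 1, 1 and 2 of the DNA methylation regulators and 2, 2, 0 and 2 of the polycomb regulators. DNMT1, the maintenance DNA methyltransferase, was at 34.0 and 56.0 CPM in WT+Kdm4A libraries, against 44.6 and 17.1 CPM in WT libraries (log2 fold change 0.54, SE 0.73, adjusted p = 0.644), and the groups overlapped. RBBP7, a histone-binding subunit of polycomb and deacetylase complexes, was at 154 and 80.8 CPM in WT+Kdm4A libraries, against 12.9 and 12.7 CPM in WT libraries, short of the threshold (log2 fold change 3.20, SE 0.92, adjusted p = 0.0559). GADD45G had no count in WT+Kdm4A libraries, against 10.1 and 35.5 CPM in WT libraries (adjusted p = 0.0528). ZNF and germline genes were included as groups that carry lysine 9 methylation in other mammals. Of 94 ZNF zinc finger genes tested, 0 rose and 3 fell (3.19% called, against 7.43% of all genes), with a median of -0.21, which was above 0 on leaving out WT replicate 1 (0.60), WT replicate 2 (0.15) or WT+Kdm4A replicate 2 (0.23). The 3 were ZNF205, ZNF511 and ZNF598, and none remained called without WT replicate 1 or without WT replicate 2. Of 7 germline genes tested, 0 rose and 0 fell in edgeR's test, with a median of 0.90. Of the germline genes, 1 had an unadjusted p under 0.05, and DESeq2, limma and the likelihood ratio test called 0, 0 and 1.

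Genes switched on with the embryonic genome and imprinted genes each moved both ways. Of 14 genes of genome activation tested, EIF3A, a scaffold of the translation initiation factor 3, rose and EIF1AX, an initiation factor on X, fell. EIF3A was at 176 and 103 CPM in WT+Kdm4A libraries, against 18 and 23.9 CPM in WT libraries (log2 fold change 2.73, SE 0.70, adjusted p = 0.0397), and EIF1AX was at 36.2 and 48.3 CPM, against 218 and 593 CPM (log2 fold change -3.26, SE 0.85, adjusted p = 0.0412). The median of this list was 0.38, and 14.3% of its tested genes were called, against 7.43% of all genes. Of 17 imprinted genes tested, BLCAP and GNAS rose and CD81 and NAP1L4 fell (23.5% called, against 7.43% of all genes). The median of imprinted genes was -0.36 (above 0 without WT replicate 2, at 0.24). GNAS, the alpha subunit of the stimulatory G protein, was at 288 and 153 CPM in WT+Kdm4A libraries, against 23 and 19.2 CPM in WT libraries (log2 fold change 3.38, SE 0.63, adjusted p = 0.0129), and the XIST-KO and IVF libraries, at 231 to 428 CPM, lay with WT+Kdm4A. CD81, a tetraspanin, was at 2.05 and 3.91 CPM in WT+Kdm4A libraries, against 258 and 335 CPM in WT libraries (log2 fold change -6.63, SE 1.32, adjusted p = 0.016). NAP1L4, a histone chaperone that lies near CD81 on chromosome 2, was at 0.12 and 0.559 CPM in WT+Kdm4A libraries, against 60.9 and 49.8 CPM in WT libraries (log2 fold change -7.33, SE 1.57, adjusted p = 0.0208). None of these 6 calls remained without WT replicate 2.

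X-linked genes were examined because the series concerns X silencing. Summed X-linked CPM per 100 autosomal CPM was 4.14 and 3.96 in WT+Kdm4A libraries, against 2.31 and 1.97 in WT libraries, with 2.39 and 3.77 in XIST-KO and 3.70 and 4.67 in IVF. The WT+Kdm4A and WT libraries did not overlap, but an exact two-sided permutation test of 2 against 2 libraries gave p = 0.333, the smallest it can give. Without RPL10, TMSB4X and SLC25A5, the 3 X-linked genes that were picked for their share of the sum after values were seen, the ratio was 2.35 and 2.11 in WT+Kdm4A libraries, against 1.98 and 1.77 in WT libraries. X-linked genes, 275 tested, had a median log2 fold change of 0.42, against 0.35 for autosomal genes. Of the 275, 13 rose and 9 fell, or 8.0% called against 7.43% of all genes. Genes of Y, 5 of them tested, gave 0 calls in edgeR's test, while 1 had an unadjusted p under 0.05 and was also called by DESeq2, by limma and by the likelihood ratio test. Summed Y-linked levels were 201 and 84.9 CPM in WT+Kdm4A libraries, against 110 and 63.4 CPM in WT libraries. The sum mixes LOC100624149, at 142 and 46.9 CPM in WT+Kdm4A libraries, against 6.12 and 1.39 CPM in WT libraries, with LOC100624648, at 22.2 and 30.4 CPM in WT+Kdm4A libraries, against 103 and 61.0 CPM in WT libraries. Neither passed edgeR's test.

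Called X-linked genes moved both ways. TMSB4X, which binds free actin, was at 1875 and 1747 CPM in WT+Kdm4A libraries, against 182 and 144 CPM in WT libraries (log2 fold change 3.48, SE 0.60, adjusted p = 0.0118). SLC25A5, an ADP/ATP carrier and paralog of SLC25A6, was at 1867 and 1341 CPM in WT+Kdm4A libraries, against 270 and 97.7 CPM in WT libraries (log2 fold change 3.12, SE 0.65, adjusted p = 0.0185), so that the 2 carriers moved in opposite directions. GNL3L, a nucleolar GTPase, was at 613 and 484 CPM in WT+Kdm4A libraries, against 57.2 and 25.9 CPM in WT libraries (log2 fold change 3.72, SE 0.64, adjusted p = 0.0114). TMSB4X and GNL3L lay above all other embryo libraries in WT+Kdm4A, while for SLC25A5 the other 4 libraries ran from 926 to 1700 CPM. Of the decreases, 6 lay within the last 5 Mb of the chromosome, among them HAUS7, FAM58A, RENBP, IRAK1 and FAM3A. FAM3A, a cytokine-like protein, was at 0.12 and 2.08 CPM in WT+Kdm4A libraries, against 97.4 and 287 CPM in WT libraries (log2 fold change -7.46, SE 1.37, adjusted p = 0.0123). Without WT replicate 1, 2 of the 13 increases and 3 of the 9 decreases remained, and without WT replicate 2 none of the 13 and 1 of the 9, PRDX4, remained.

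Subunits of oxidative phosphorylation moved both ways. Of 49 tested, 3 rose and 8 fell (22.4% called, against 7.43% of all genes), with a median of -0.54 against 0.35 over all genes. Of the 8, 7 belong to complex I: NDUFA10, NDUFA12, NDUFAB1, NDUFS4, NDUFS6, NDUFS8 and NDUFV3. The share of complex I among the 49 was not counted. NDUFA10, NDUFS6, NDUFS8 and NDUFV3 lie within 5 Mb of a chromosome end, a feature described below. NDUFS8, an iron-sulfur subunit, was at 15.4 and 33 CPM in WT+Kdm4A libraries, against 1816 and 3383 CPM in WT libraries, with 4.91 to 102 CPM in the other 4 (log2 fold change -6.75, SE 0.90, adjusted p = 0.00481). NDUFV3 was at 0.361 and 0.319 CPM in WT+Kdm4A libraries, against 157 and 173 CPM in WT libraries (log2 fold change -8.87, SE 1.13, adjusted p = 0.00458). NDUFA10 was at 5.6 and 11.9 CPM in WT+Kdm4A libraries, against 514 and 1567 CPM in WT libraries (log2 fold change -6.89, SE 0.93, adjusted p = 0.00481). Calls for NDUFS8, NDUFV3, NDUFA10 and NDUFS6 held without each library. The risers were the complex I subunit NDUFA7 and the complex II subunits SDHB and SDHD, with SDHD at 321 and 197 CPM in WT+Kdm4A libraries, against 18.8 and 21.8 CPM in WT libraries (log2 fold change 3.67, SE 0.62, adjusted p = 0.0112). None of the 3 remained called without WT replicate 1 or without WT replicate 2.

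Mitochondrial ribosomal proteins, a family chosen after values were seen, had 57 members tested, of which 2 rose and 3 fell. Called were 8.77%, against 7.43% of all genes, and the median was 0.30. MRPL28 was at 7.77 and 34.2 CPM in WT+Kdm4A libraries, against 1212 and 3117 CPM in WT libraries (log2 fold change -6.69, SE 1.02, adjusted p = 0.00786), and this call held without each library. MRPL49 was at 351 and 266 CPM in WT+Kdm4A libraries, against 13.2 and 18.3 CPM in WT libraries (log2 fold change 4.29, SE 0.64, adjusted p = 0.00746). No increase of this family remained called without WT replicate 2. Cytosolic ribosomal proteins had 64 members tested, of which 5 rose and 2 fell (10.9% called, against 7.43% of all genes), with a median of 0.16. RPL10 was at 13840 and 18610 CPM in WT+Kdm4A libraries, against 2559 and 1963 CPM in WT libraries (log2 fold change 2.84, SE 0.57, adjusted p = 0.0161). RPL5, RPS3 and RPS7 were higher in both WT+Kdm4A libraries than in any other embryo library, with XIST-KO and IVF at 413 to 4689 CPM. RPL37 was at 29.1 and 22.6 CPM in WT+Kdm4A libraries, against 231 and 210 CPM in WT libraries (log2 fold change -3.09, SE 0.71, adjusted p = 0.0264), and RPS27 fell too. Ribosomal protein genes have many processed copies, so their read shares are uncertain, and none of the 7 calls remained without WT replicate 1 or without WT replicate 2.

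Cathepsins, proteases of the lysosome, and V-ATPase subunits are families chosen after values were seen. Of 11 cathepsins tested, 3 rose and 3 fell (54.5%, against 7.43% of all genes), with a median of 0.09 that was -0.04 with RLE size factors. CTSD (chromosome 2, 1188548 to 1197642), the aspartic protease, was at 126 and 326 CPM in WT+Kdm4A libraries, against 24380 and 28440 CPM in WT libraries and 302 to 885 CPM in the other 4 (log2 fold change -6.87, SE 0.84, adjusted p = 0.00424). CTSZ was at 0.662 and 3.83 CPM in WT+Kdm4A libraries, against 1232 and 2546 CPM in WT libraries (log2 fold change -9.72, SE 1.27, adjusted p = 0.00481). Calls for both held without each library, and CTSH fell as well. CTSL and CTSV, a close pair of cysteine proteases whose reads may be split, rose, with CTSL at 479 and 255 CPM in WT+Kdm4A libraries, against 34.9 and 5.4 CPM in WT libraries (log2 fold change 4.18, SE 0.93, adjusted p = 0.0238), and CTSC rose too. Of the 3 cathepsin increases, 1 remained called without WT replicate 1 and 0 without WT replicate 2. Of 16 subunits and partners of the V-ATPase, the proton pump of the lysosome, ATP6AP2, ATP6V1E1 and ATP6V1G1 rose and ATP6V0C fell, with a median of 1.04, and none of these 3 increases remained without either 1 of the WT libraries. ATP6V0C, which forms the membrane ring of the pump, was at 59.2 and 327 CPM in WT+Kdm4A libraries, against 14490 and 31570 CPM in WT libraries (log2 fold change -6.90, SE 1.02, adjusted p = 0.00746), and its call held without each library. LAMP1 and CSTB belong to neither family and were picked after their values were seen. LAMP1, a glycoprotein of the lysosomal membrane, was at 0 and 0.0798 CPM in WT+Kdm4A libraries, against 122 and 140 CPM in WT libraries, a ratio of WT to WT+Kdm4A of 3793 (95% counting interval 680 to 149900) (adjusted p = 0.00537). CSTB, an inhibitor of cathepsins, was at 14.1 and 52.2 CPM in WT+Kdm4A libraries, against 1662 and 2312 CPM in WT libraries (log2 fold change -5.91, SE 0.82, adjusted p = 0.00537).

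Proteasome subunits had 30 members tested, of which PSMB4 rose and PSMD3 and PSMD14 fell, with a median of 0.93. PSMD3 of the regulatory lid was at 1.26 and 5.11 CPM in WT+Kdm4A libraries, against 351 and 304 CPM in WT libraries (log2 fold change -6.68, SE 0.94, adjusted p = 0.00573), and its call held without each library. Among 23 antioxidant genes tested, 3 rose and 2 fell (21.7% called, against 7.43% of all genes), with a median of -0.17. CAT, which breaks down hydrogen peroxide, was at 277 and 134 CPM in WT+Kdm4A libraries, against 9.34 and 16 CPM in WT libraries (log2 fold change 4.02, SE 0.73, adjusted p = 0.0123). PRDX3, the mitochondrial peroxiredoxin, was at 174 and 96.2 CPM in WT+Kdm4A libraries, against 8.7 and 6.44 CPM in WT libraries (log2 fold change 4.15, SE 0.78, adjusted p = 0.0129), and the mitochondrial dismutase SOD2 rose too. PRDX4 (X, 19800153 to 19819575), the peroxiredoxin of the endoplasmic reticulum, was at 37.2 and 35.4 CPM in WT+Kdm4A libraries, against 625 and 656 CPM in WT libraries (log2 fold change -4.14, SE 0.59, adjusted p = 0.00573). For CAT, PRDX3 and SOD2 the XIST-KO and IVF libraries, at 65 to 304 CPM, all lay above WT, and for PRDX4, at 43.3 to 95.8 CPM, they all lay between WT+Kdm4A and WT. The PRDX4 call held without each library, and none of the 3 increases remained without WT replicate 1 or without WT replicate 2.

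Genes of the heat shock and unfolded protein responses moved both ways. Of 24 genes of these responses tested, 3 rose and 3 fell (25% called, against 7.43% of all genes), with a median of -0.08 that was 0.04 under a filter at 1 CPM. HSPD1, the mitochondrial chaperonin, was at 3419 and 1127 CPM in WT+Kdm4A libraries, against 234 and 62.7 CPM in WT libraries (log2 fold change 3.94, SE 0.97, adjusted p = 0.0343), and HSP90AA1, the inducible cytosolic HSP90, was at 4532 and 2716 CPM, against 932 and 478 CPM (log2 fold change 2.36, SE 0.62, adjusted p = 0.043). Both were higher in WT+Kdm4A than in any other embryo library, and ATF3, a stress-induced transcription factor, rose too. HSF1, the master regulator of the heat shock response, was at 1.63 and 18.3 CPM in WT+Kdm4A libraries, against 309 and 337 CPM in WT libraries (log2 fold change -5.02, SE 1.10, adjusted p = 0.0222). XBP1, a transcription factor of the unfolded protein response, was at 185 and 166 CPM in WT+Kdm4A libraries, against 700 and 966 CPM in WT libraries (log2 fold change -2.25, SE 0.54, adjusted p = 0.0313). PPP1R15A, which restores translation after stress, fell to 0.482 and 1.44 CPM in WT+Kdm4A libraries, against 31.1 and 70.4 CPM in WT libraries (log2 fold change -5.71, SE 1.51, adjusted p = 0.0439). None of the 6 calls remained without WT replicate 1 or without WT replicate 2.

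Cell death and p53 genes gave 1 call, or 7.69% of the apoptosis regulators tested, against 7.43% of all genes. Of 13 apoptosis regulators tested, BID, a death agonist that acts on mitochondria, rose to 67.3 and 88.5 CPM in WT+Kdm4A libraries, against 7.57 and 6.27 CPM in WT libraries (log2 fold change 3.49, SE 0.74, adjusted p = 0.0198), with 51.7 to 202 CPM in the other 4, and lost its call without either 1 of the WT libraries. Of 17 p53 targets tested, 0 rose and 0 fell in edgeR's test, with a median of -0.68. Of the p53 targets, 3 had an unadjusted p under 0.05, and DESeq2, limma and the likelihood ratio test called 1, 1 and 1. CCNG1, a cyclin induced by p53, was at 3300 and 1155 CPM in WT+Kdm4A libraries, against 606 and 1230 CPM in WT libraries, and the groups overlapped. AEN, an exonuclease of p53-driven death, was at 465 and 562 CPM in WT+Kdm4A libraries, against 307 and 145 CPM in WT libraries, short of the threshold (log2 fold change 1.18, SE 0.58, adjusted p = 0.197).

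Proliferation genes did not pass edgeR's test. Of 24 cell cycle and replication genes tested, 0 rose and 0 fell in edgeR's test, with a median of 1.30, and 17 of the 24 had a fold change above 0 against 3808 of 6958 over all genes. Of the 24, 10 had an unadjusted p under 0.05, and DESeq2, limma and the likelihood ratio test called 6, 1 and 6. MCM2, a subunit of the replicative helicase, was at 212 and 285 CPM in WT+Kdm4A libraries, against 130 and 54.7 CPM in WT libraries (log2 fold change 1.43, SE 0.62, adjusted p = 0.157). The CDK inhibitor CDKN1A was at 344 and 278 CPM in WT+Kdm4A libraries, against 133 and 121 CPM in WT libraries (adjusted p = 0.152). Of 26 DNA repair genes tested, 0 rose and 1 fell (3.85% called, against 7.43% of all genes), with a median of 1.40. The 1 was LIG3, a DNA ligase of base excision repair, at 11.8 and 16.6 CPM in WT+Kdm4A libraries, against 104 and 117 CPM in WT libraries (log2 fold change -2.95, SE 0.81, adjusted p = 0.0499), a call lost without any 1 of the compared libraries.

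The other lists held 1 call in a direction at most. Called were 6.45% of splicing, 8.0% of hypoxia and glycolysis, 3.7% of cholesterol and lipid and 7.14% of interferon genes. Over all genes the share was 7.43%. Among 31 splicing factors, PRPF4 rose to 508 and 320 CPM in WT+Kdm4A libraries, against 53 and 25.9 CPM in WT libraries (log2 fold change 3.39, SE 0.73, adjusted p = 0.0212), above all other libraries, and PRPF31, a partner of PRPF4 in the same small nuclear ribonucleoprotein, fell to 1.81 and 20.3 CPM in WT+Kdm4A libraries, against 259 and 234 CPM in WT libraries (log2 fold change -4.48, SE 1.04, adjusted p = 0.027). Among 25 hypoxia and glycolysis genes, PGK1, a glycolytic kinase on X, was at 198 and 87.8 CPM in WT+Kdm4A libraries, against 10.9 and 10.8 CPM in WT libraries (log2 fold change 3.71, SE 0.80, adjusted p = 0.0213), and BNIP3, a mitophagy receptor induced by hypoxia, was at 9.21 and 46.9 CPM, against 743 and 1373 CPM (log2 fold change -5.24, SE 0.94, adjusted p = 0.0119). Thus in each of these 2 lists 1 member rose and 1 fell. Among 27 cholesterol and lipid genes, FDFT1, the squalene synthase, was at 270 and 207 CPM in WT+Kdm4A libraries, against 40.4 and 48.4 CPM in WT libraries (log2 fold change 2.42, SE 0.63, adjusted p = 0.041). Among 14 interferon genes, STAT2, a signal transducer of type I interferon, was at 110 and 46.5 CPM in WT+Kdm4A libraries, against 1.45 and 3.66 CPM in WT libraries (log2 fold change 4.94, SE 1.00, adjusted p = 0.0161). Of these 6 calls, BNIP3 alone remained without WT replicate 1 and none without WT replicate 2. Of 26 signalling, 11 fibroblast and 7 cumulus cell genes tested, 0 were called in edgeR's test. At an unadjusted p under 0.05, in DESeq2, in limma and in the likelihood ratio test the counts were 7, 5, 0 and 4 of the signalling genes, 2, 1, 0 and 2 of the fibroblast genes and 2, 1, 0 and 2 of the cumulus cell genes. SMAD4, the common mediator of TGF-beta signals, was at 71.3 and 22.8 CPM in WT+Kdm4A libraries, against 4.35 and 6.44 CPM in WT libraries (log2 fold change 3.12, SE 0.93, adjusted p = 0.0616).

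Called decreases lay often near chromosome ends, a feature examined after the gene names were seen. Of 303 called-lower genes placed on chromosomes 1 to 18 or X, 90 (29.7%) lay within 5 Mb of the start or of the last annotated gene of a chromosome, against 11 of 204 called-higher genes (5.39%) and 575 of 6910 tested genes (8.32%). Of the 575 genes in these windows, 15.7% were called lower and 1.91% higher, with a median log2 fold change of -1.66, against 3.36% and 3.05%, with a median of 0.49, among genes outside. Of 43 tested genes without a known chromosome, 9 (20.9%) were called lower and 2.33% higher, with a median of -2.11. A high share of decreases was thus not particular to the windows. The first 5 Mb of chromosome 4 held 9 decreases and 0 increases among 25 tested genes: PPP1R16A, TONSL, SLC39A4, SLC52A2, DGAT1, HSF1, BOP1, MAF1 and RHPN1. The first 5 Mb of chromosome 2 held 10 decreases among 36, including CTSD, CD81, NAP1L4 and NDUFS8. Windows at high-numbered ends held further decreases named above. These were LAMP1 (chromosome 11), NDUFV3 and CSTB (13), NDUFA10 (15), NDUFS6 (16) and CTSZ (17). By contrast, chromosomes 9 and 18 had 0 decreases in both end windows, among 18 and 5 and among 4 and 16 genes. Genes of the windows held 10.8% and 13.8% of gene counts in WT+Kdm4A libraries, against 16.1% and 20.4% in WT libraries, with 10.1% to 16.2% in the other 4. Of the 90 decreases, 46 remained called without WT replicate 1 and 23 without WT replicate 2. Coordinates are of the annotation of Sscrofa11.1.

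**Figure D5:**
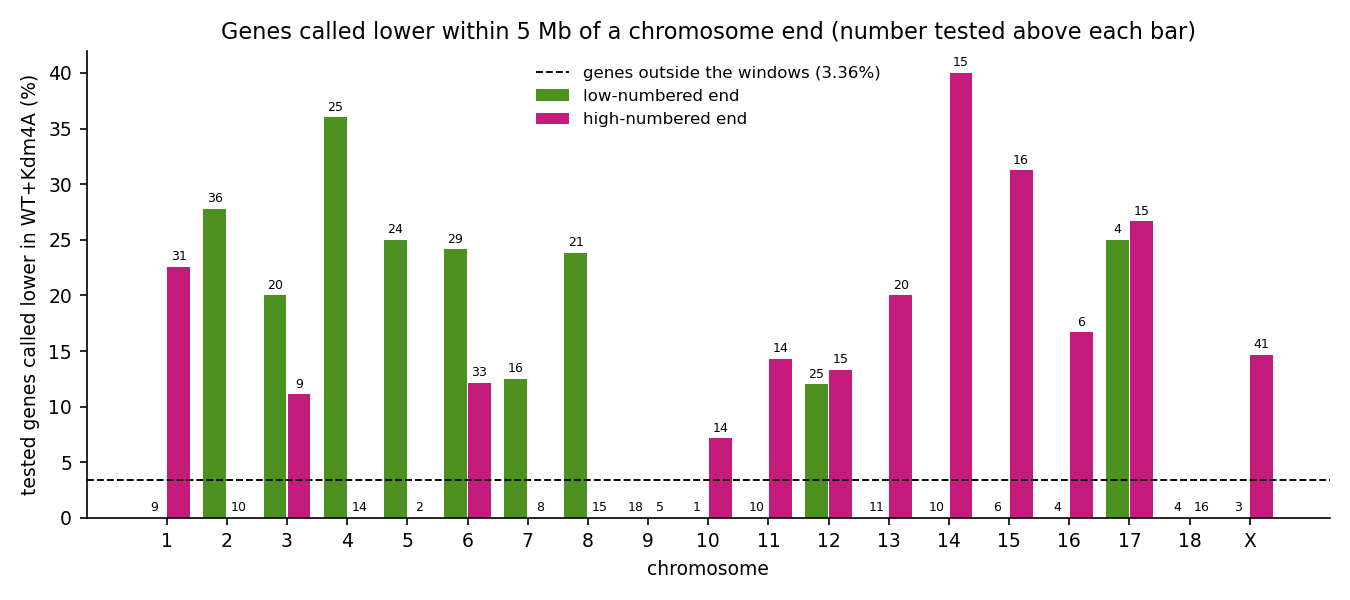
Percentage of tested genes called lower in WT+Kdm4A within 5 Mb of the low-numbered and the high-numbered end of each chromosome, with the number of genes tested above each bar and the level outside the windows as a dashed line. The low-numbered end of chromosome 4 holds 9 calls among 25 genes and the high-numbered end of chromosome 14 holds 6 among 15, against 3.36% outside the windows.

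Called-lower genes were also short. Their median gene span was 10655 bp, against 22325 bp for called-higher genes and 20476 bp for all genes tested. Across 4 equal bins of gene span, from shortest to longest, 6.95%, 5.69%, 3.45% and 1.84% of genes were called lower, and the median log2 fold change was -0.36, 0.11, 0.64 and 1.03. The share called higher, at 2.24%, 3.11%, 3.74% and 2.7%, had no such order. Within the end windows 15.9%, 28.1%, 11% and 6.3% of genes were called lower across the same 4 bins, against 5.69%, 3.53%, 2.81% and 1.5% outside, so that end windows were higher in each bin. The longest matched record had a median of 1839 nt in called-lower genes, against 1939 nt in called-higher genes and 2237 nt in all genes tested.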

How the data were processed

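RNA of day 6 pig embryos was measured in 8 libraries, of which 4 are compared. The deposited expected counts and TPM per RefSeq transcript record were made with RSEM 1.2.4 on build Sscrofa11.1, per the submitters' processing notes. The aligner and the strand setting were not stated there. Of 65927 records, 25305 (38.4%) were matched to RefSeq gene symbols by accession without version, and their expected counts (79.5% to 85.0% of each library's total) were summed per gene and rounded. Library totals were 6.45 to 20.35 M.

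Genes were filtered by expression, scaled by TMM and tested with edgeR 4.0.16 (quasi-likelihood, group means over all 8 libraries, R 4.3.3), with Benjamini-Hochberg adjustment over 6958 genes and a threshold of 0.05. All 8 libraries enter so that 4 groups share 1 estimate of spread. The script was tested on simulated counts. SE is the fold change over the square root of F. Groups without counts were set to 3 counts, and groups with 1 to 3 counts got exact 95% intervals, both for counting error only. Alternatives were RLE scaling, other filters, DESeq2 1.42.0, limma 3.58.1 on log2(TPM + 1), a likelihood ratio test, only the 4 libraries, a replicate block, version matching and each library left out. Tables used pandas 2.3.3 and scipy 1.17.1.

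Named were up to 15 called genes per direction by fold change (log2 CPM of at least 1, no overlap), every called member of a list, otherwise up to 4 abundant members, and cell type markers; others are said to be chosen after values were seen. Comparison and lists were chosen with earlier results of these data known. Fetus libraries were not analysed here, and some called genes are not reported here.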

Additional observations from a re-analysis of the deposited data

How the results depend on the processing

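Of the 517 genes called, no filter on low counts gave 1046 (479 higher, 567 lower), DESeq2 1553 (714 and 839), fitting only the 4 compared libraries 1490 (765 and 725), the edgeR likelihood ratio test 1548 (796 and 752), version matching 132 (59 and 73) and limma on log2(TPM + 1) 220 higher and 540 lower. Leaving out 1 library gave 58 to 1117 calls, 9 to 550 higher and 49 to 567 lower; the lowest was without WT replicate 2 and the highest without XIST-KO replicate 1. Calls higher made up 39.7% of calls, 9.77% without WT replicate 1 and 15.5% without WT replicate 2.

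The X-linked minus autosomal median log2 fold change, WT+Kdm4A against WT, 0.07, was 0.22 with no filter, 0.26 with the replicate block, 0.32 with version matching and 0.10 to 0.51 with 1 library left out. For ZNF genes, WT+Kdm4A against WT, the median, -0.21, was 0.05 with the replicate block, -2.03 with version matching and -0.62 to 0.60 with 1 library left out. Replicate numbers pair nothing in the labels, and same-numbered WT+Kdm4A and WT libraries deviated with a correlation of 0.01; the replicate block gave 205 calls higher and 334 lower.

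Of the 156 called genes that the naming rule and the families take in, not all of them in the text, 138 kept their call under RLE, 151 under the 1 CPM filter, 154 in DESeq2, 113 in limma, 141 with the replicate block, 49 without WT replicate 1, 27 without WT replicate 2, 93 without WT+Kdm4A replicate 1 and 133 without WT+Kdm4A replicate 2. WDR54 was at 0.0 with version matching (adjusted p = 1.0). Thinning all libraries to the shallowest, chosen after the depths were seen, gave 260 calls higher and 325 lower. The causes of these shifts were not tested. With 2 libraries a group, most calls were lost without at least 1 of the compared libraries, which limits them. Such a loss can come from lower power as well as from the library left out.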

Other observations

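Several enzyme families, picked after their values were seen and so no support for one another, held more called members than the 7.43% of all genes. Of 8 methionine cycle and transsulfuration enzymes tested, 3 rose and 0 fell (37.5% called). MAT2A, which makes the methyl donor S-adenosylmethionine, was at 798 and 431 CPM in WT+Kdm4A libraries, against 24.1 and 21.6 CPM in WT libraries (log2 fold change 4.75, SE 0.91, adjusted p = 0.014). AHCY, which clears the product of methylation reactions, was at 1862 and 2323 CPM in WT+Kdm4A libraries, against 294 and 117 CPM in WT libraries (log2 fold change 3.35, SE 0.63, adjusted p = 0.0129), and the transsulfuration enzyme CTH rose too. Without WT replicate 1, 1 of the 3 remained called, and without WT replicate 2, 0 remained. Of 15 purine synthesis and salvage enzymes tested, ADSL, ATIC, GMPR2, IMPDH2 and PNP rose and APRT fell (40.0% called). PNP, a phosphorylase of purine salvage, was at 1745 and 1107 CPM in WT+Kdm4A libraries, against 133 and 74.5 CPM in WT libraries (log2 fold change 3.78, SE 0.63, adjusted p = 0.0104). APRT, which salvages adenine, was at 3.79 and 22.5 CPM in WT+Kdm4A libraries, against 247 and 416 CPM in WT libraries (log2 fold change -4.66, SE 1.04, adjusted p = 0.0237). Of the 5 increases, 1 remained without WT replicate 1 and 0 without WT replicate 2.

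Of 22 pyruvate dehydrogenase and citric acid cycle enzymes tested, 5 rose and 2 fell (31.8% called, against 7.43% of all genes). The isocitrate dehydrogenases split by gene. IDH1, the cytosolic form, was at 822 and 312 CPM in WT+Kdm4A libraries, against 60.4 and 19.2 CPM in WT libraries (log2 fold change 3.83, SE 0.94, adjusted p = 0.0335). IDH2, a mitochondrial form, was at 3.97 and 9.58 CPM in WT+Kdm4A libraries, against 585 and 1596 CPM in WT libraries (log2 fold change -7.33, SE 0.90, adjusted p = 0.00424). IDH3A, a subunit of another mitochondrial form, rose. It was at 2242 and 1264 CPM in WT+Kdm4A libraries, against 191 and 161 CPM in WT libraries (log2 fold change 3.32, SE 0.60, adjusted p = 0.0122). OGDH, a subunit of the 2-oxoglutarate dehydrogenase, was at 1.32 and 2.95 CPM in WT+Kdm4A libraries, against 558 and 474 CPM in WT libraries (log2 fold change -7.91, SE 1.30, adjusted p = 0.0103). Calls for IDH2 and OGDH held without each of the 4 compared libraries, and none of the 5 increases remained without WT replicate 1. Of 33 translation initiation factors tested, 7 rose and 1 fell, with a median of 0.94 against 0.35 over all genes, and none of the 8 calls remained without WT replicate 1 or without WT replicate 2. Called were 24.2% of the initiation factors tested, against 7.43% of all genes. RN18S, the 18S ribosomal RNA, which was also chosen after its values were seen, was at 16.3 and 41.8 CPM in WT+Kdm4A libraries, against 161 and 606 CPM in WT libraries (log2 fold change -3.72, SE 0.82, adjusted p = 0.0233).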
